A study of Homo sapiens with 6 samples.

Results

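The genes described here handle cellular iron in TOV21G, an established cell line of ovarian clear cell carcinoma: TFRC, SLC11A2 and STEAP3 for uptake, FTH1 and FTL for storage, NCOA4 for ferritin turnover, SLC40A1 for export and IREB2 for sensing, together with AIFM2, a guard against ferroptosis. They were chosen by symbol, 9 genes of the 42656 rows in the count table, and all 9 were found. Messenger RNA was sequenced in 3 libraries with a lentiviral short hairpin RNA against MEX3A (shMEX3A, TRCN230492; genotype given as MEX3A knockdown) and 3 with a scrambled hairpin (shCtrl, TRC2-Scramble_ASN0003; genotype given as WT). Both arms received lentivirus at a multiplicity of infection of 50 in medium with 15% serum, were within 25 passages of thawing and were harvested on day 3. MEX3A is an RNA-binding protein with a RING domain, and the comparison asks which transcripts differ after its depletion. The model is 1 line with 1 hairpin an arm. Nothing in the labels tells whether libraries within an arm are separate cultures. The p-values therefore weigh differences against the spread of these libraries, which may be technical.

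Iron bound to transferrin enters cells through the transferrin receptor, is reduced by STEAP enzymes in endosomes and reaches the cytosol through SLC11A2. Surplus iron is stored in ferritin shells of heavy and light chains or leaves through ferroportin, the only known iron exporter of mammalian cells. When iron is scarce, iron regulatory proteins bind hairpins called iron-responsive elements: in a 5′ UTR this blocks translation of ferritin and ferroportin, and in the 3′ UTR it protects the receptor mRNA from decay. Ferroptosis is a form of cell death driven by iron-dependent lipid peroxidation, which GPX4 and AIFM2 counter by separate routes.

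The elements are shown because they mark the ferritin, ferroportin and transferrin receptor mRNAs that the iron sensors are known to bind. They were searched in GENCODE 29 transcripts (GRCh38) as a C, any 5 bases, CAGTGN, and 5 bases that pair with the first 5, G-T pairs allowed. Capitals mark the bulged C and the loop, all sequences run 5′ to 3′, and T stands for U. For TFRC, upstream and downstream rank only the matches found, and any element that departs from the pattern is not shown.
FTH1 in the 5′ UTR: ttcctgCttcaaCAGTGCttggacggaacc
FTL in the 5′ UTR: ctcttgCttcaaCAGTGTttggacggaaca
SLC40A1 in the 5′ UTR: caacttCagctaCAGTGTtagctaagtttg
TFRC in the 3′ UTR, most upstream: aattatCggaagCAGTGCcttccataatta
TFRC in the 3′ UTR, next: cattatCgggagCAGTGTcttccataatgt
TFRC in the 3′ UTR, next: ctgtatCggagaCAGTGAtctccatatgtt
TFRC in the 3′ UTR, most downstream: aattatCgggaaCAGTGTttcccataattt

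The ferritin elements share the arms and the first 5 letters of the loop, while those of TFRC differ in the letters of the stem. A match to this pattern was found in the 5′ UTR of 0.192% of 19243 coding genes and in the 3′ UTR of 0.843% of 19454, over UTRs of all lengths. The other 5 members had no match to these letters. An isoform of SLC11A2 is known to carry a variant element with an extra bulge, which the pattern does not cover. Counts per gene do not separate transcripts with and without an element. A match describes sequence and says nothing of binding in these cells.

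MEX3A, the targeted gene, measured 19.6, 21.0 and 22.2 CPM (counts per standard library size after TMM scaling) in shMEX3A libraries, against 68.8, 70.7 and 67.6 CPM in shCtrl libraries, a log2 fold change of -1.72. Library totals ran from 34662635 to 48228216 counts, and all 9 members passed the low-count filter, with at least 58 counts in every library. The cells expressed PAX8, a marker of Müllerian epithelium that the clear cell type retains, at 189 to 300 CPM, while NAPSA reached at most 0.797 CPM and ESR1 and PGR had no counts. Of 8 macrophage and leukocyte markers, 2 were tested, CD68 and ITGAM, and both rose. Over all tested genes 34.0% were higher and 35.6% lower in shMEX3A. CD68 has 85.8% of its exon bases under other genes, and ITGAM averaged 2.01 CPM in shMEX3A and 0.659 CPM in shCtrl. The list summed to 10.6 to 11.1 CPM in shMEX3A and 7.55 to 8.66 CPM in shCtrl, with CD163 and CD3E at 0 in all 6 libraries. Of 8 erythroid markers 1 was tested, EPOR, which fell, beside the same shares over all genes. The list summed to 5.74 to 6.11 CPM in shMEX3A and 6.75 to 9.56 CPM in shCtrl, and HBA1, HBA2 and ALAS2 were at 0. Of 8 hepatocyte markers 2 were tested and 1 fell, FGB, again beside those shares. FGB carried nearly all of the sum of 30.6 to 35.4 CPM in shMEX3A and 125 to 134 CPM in shCtrl. TTR, HAMP and APOH were at 0. All libraries come from an established cell line, so these sums do not measure numbers of leukocytes, erythroid cells or hepatocytes. In bulk RNA, fewer cells of the line with a transcript and less of it per cell cannot be told apart.

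SLC40A1, which encodes the exporter ferroportin, had the largest change of the 9 genes. It was 3.11-fold lower in shMEX3A, whereas IREB2, SLC11A2, NCOA4 and TFRC rose by 5.42% to 19.2% and AIFM2 by 27.2%. FTH1, FTL and STEAP3 did not pass the test. In all, 5 members rose and 1 fell (edgeR quasi-likelihood test, adjusted p under 0.05 over all 15679 tested genes). Over all tested genes 69.7% were called, 34.0% higher and 35.6% lower in shMEX3A, so the number of members called is close to the background. The median absolute log2 fold change of all tested genes was 0.35. Only SLC40A1 among the members lay well beyond that value, AIFM2 lay next to it, and the other 7 were below it.

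**Figure D1:**
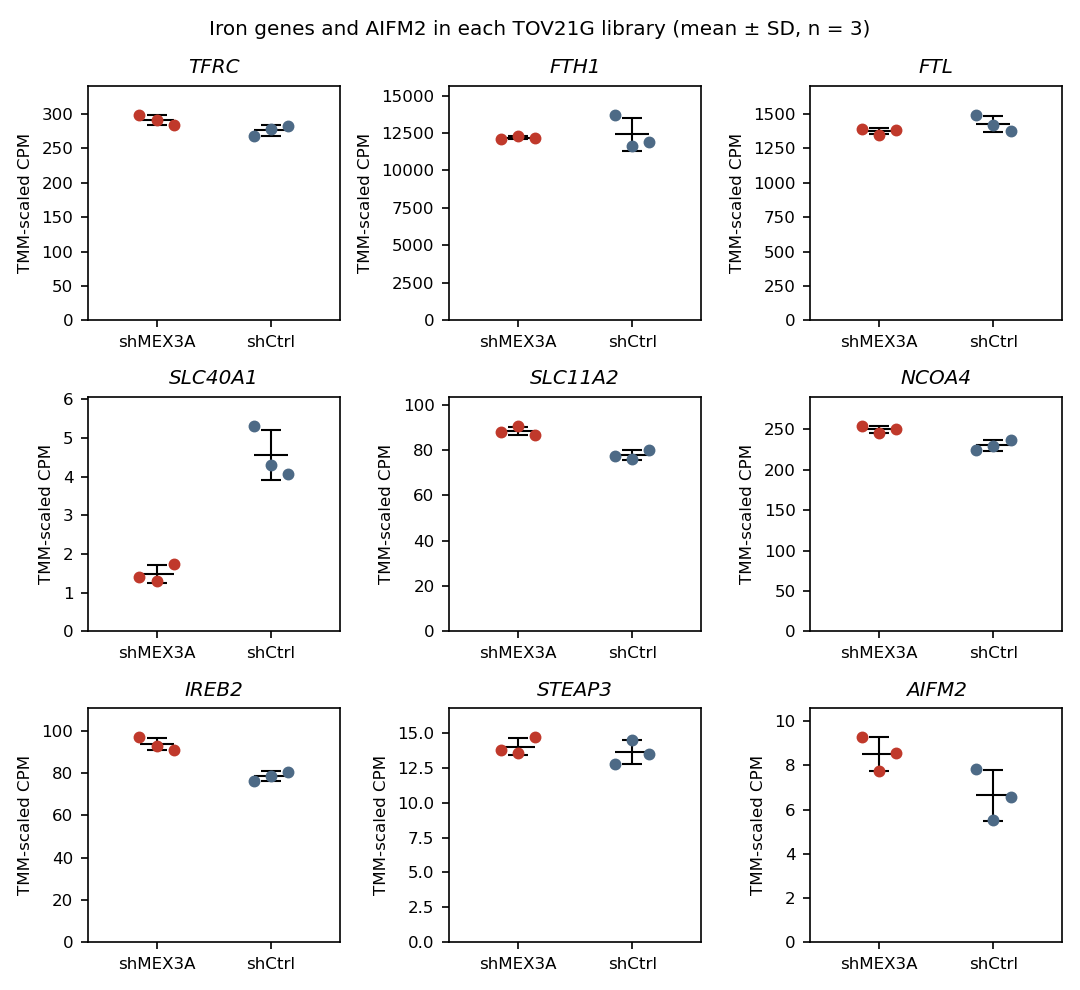
TMM-scaled CPM (vertical axes, from 0) of the 9 genes in the 3 shMEX3A libraries (red) and the 3 shCtrl libraries (blue), with the mean and SD of each arm in black. SLC40A1 is the gene whose arms lie farthest apart in proportion, at 1.49 CPM in shMEX3A and 4.56 CPM in shCtrl on average, while FTH1, FTL, STEAP3 and AIFM2 overlap.

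The SLC40A1 gene spans positions 189560579 to 189583758 of chromosome 2, minus strand (GENCODE 29 on GRCh38). It measured 1.40, 1.32 and 1.74 CPM in shMEX3A libraries, against 5.31, 4.32 and 4.07 CPM in shCtrl libraries. The arms did not overlap, and the lowest shCtrl library was above the highest shMEX3A library. The values rest on 58, 62 and 59 counts in shMEX3A and on 232, 153 and 163 counts in shCtrl. The log2 fold change was -1.64 (SE 0.150, 95% interval -1.94 to -1.33, adjusted p = 2.64e-12, edgeR quasi-likelihood test), and 3.72% of tested genes had a larger change in size. Although clearly lower, this was the least abundant member, and it was already low in shCtrl.

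TFRC, the transferrin receptor, spans positions 196027183 to 196082189 of chromosome 3, also on the minus strand. Its level was 298, 291 and 284 CPM in shMEX3A libraries, against 267, 278 and 283 CPM in shCtrl libraries. The arms were apart, but the lowest shMEX3A library, 283.7 CPM, was only just above the highest shCtrl library, 282.9 CPM. In edgeR this gave a log2 fold change of 0.076 (SE 0.031, adjusted p = 0.0271). TFRC no longer passed when shCtrl replicate 1 (0.052, adjusted p = 0.131), shMEX3A replicate 1 (0.060, adjusted p = 0.129) or shMEX3A replicate 2 (0.077, adjusted p = 0.0633) was left out. It also missed the threshold without the low-count filter (0.064, adjusted p = 0.0853) and with a replicate block (0.076, adjusted p = 0.0553). With offsets for GC content and transcript length the log2 fold change of TFRC was 0.18 (adjusted p = 1.70e-07).

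SLC11A2, also called DMT1, carries ferrous iron across the endosomal membrane and is encoded on chromosome 12 (50979401 to 51028566, minus strand). It measured 88.2, 90.5 and 86.8 CPM in shMEX3A libraries, against 77.2, 75.9 and 80.2 CPM in shCtrl libraries. All 3 shMEX3A libraries were above all 3 shCtrl libraries. Its log2 fold change was 0.19 (SE 0.036, adjusted p = 2.12e-05, edgeR), and 0.28 with the GC and length offsets. STEAP3, the endosomal ferrireductase (chromosome 2, 119223831 to 119265652, plus strand), measured 13.8, 13.6 and 14.7 CPM in shMEX3A libraries and 12.8, 14.5 and 13.5 CPM in shCtrl libraries. Its arms overlapped, with a log2 fold change of 0.04 (95% interval -0.10 to 0.18, adjusted p = 0.587, edgeR), and the offsets turned its sign (-0.14, adjusted p = 0.0569). Of the STEAP3 exon bases in GENCODE 29, 11.0% lie under the antisense gene STEAP3-AS1.

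The sensor transcripts differed as well. IREB2, which encodes iron regulatory protein 2 (chromosome 15, 78437431 to 78501456, plus strand), measured 96.8, 92.9 and 91.0 CPM in shMEX3A libraries, against 76.3, 78.7 and 80.7 CPM in shCtrl libraries. The arms did not overlap, and the spread within each was small beside the gap. IREB2 thus rose by 0.25 on the log2 scale (SE 0.037, 95% interval 0.18 to 0.33, adjusted p = 1.24e-07, edgeR). Beside it, ACO1, the cytosolic aconitase that doubles as the other iron regulatory protein, averaged 157 ± 2.13 CPM in shMEX3A and 128 ± 0.995 CPM in shCtrl (SD, n = 3 each; log2 fold change 0.29, adjusted p = 1.91e-10, edgeR). FBXL5, the ligase subunit that marks IREB2 protein for degradation when iron is plentiful, fell to 68.8 ± 0.817 CPM in shMEX3A, against 81.9 ± 1.42 CPM in shCtrl (SD, n = 3 each; log2 fold change -0.25, adjusted p = 9.64e-08, edgeR). ACO1 and FBXL5 were singled out after their values were seen and were not read singly under the alternative settings. These are mRNA levels, and the activity of these proteins was not measured.

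Ferritin mRNA was abundant in both arms and its difference between them was small. FTH1, the heavy chain with ferroxidase activity, was the 2nd highest of all rows in every library and held 1.19% of counts in shMEX3A replicate 1, 1.20% in replicate 2 and 1.19% in replicate 3, against 1.38%, 1.19% and 1.22% in shCtrl. In scaled units it measured 12099, 12283 and 12195 CPM in shMEX3A libraries and 13681, 11614 and 11920 CPM in shCtrl libraries. The shMEX3A libraries lay within 184 CPM of each other, while shCtrl replicate 1 stood above the other 5 libraries. The log2 fold change was -0.02 (SE 0.055, 95% interval -0.15 to 0.10, adjusted p = 0.704, edgeR). Without shCtrl replicate 1 it was 0.05 (adjusted p = 0.107), and with GC and length offsets FTH1 was called higher, at 0.12 (adjusted p = 0.0224).

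A limit applies to FTH1 itself. Of its exon bases in GENCODE 29 (chromosome 11 from 61959718 to 61967660, minus strand), 62.4% lie under exons of BEST1, a chloride channel gene on the other strand, and the strand setting of the counting is not given in the sources used here. BEST1 measured 72.3, 89.1 and 50.9 CPM in shMEX3A libraries, against 23.9, 222 and 160 CPM in shCtrl libraries. The library with the most FTH1, shCtrl replicate 1, had the least BEST1, and the library with the least FTH1, shCtrl replicate 2, had the most. Within shMEX3A, however, replicate 2 had both the most FTH1 and the most BEST1. BEST1 counts came to 0.580% ± 0.155 of FTH1 counts in shMEX3A and 1.14% ± 0.886 in shCtrl (SD, n = 3 each). Reads that counting may have set aside over the shared bases are not in these numbers, and the part of the overlap in the FTH1 spread was not tested. Adding the BEST1 counts, not those reads, to FTH1, an alternative chosen after seeing the data, gave a log2 fold change of -0.03 (adjusted p = 0.537, edgeR). FTH1 also has 27 pseudogenes named in RefSeq, of which 1, FTH1P3, is a row of the table, with at most 8 counts a library. How reads shared with the other copies were counted was not examined, so the FTH1 level is uncertain.

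**Figure D2:**
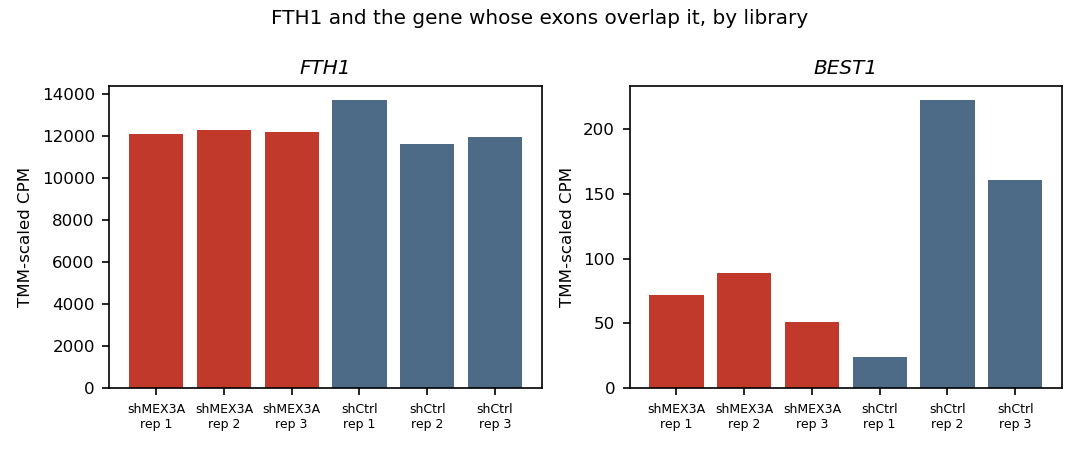
TMM-scaled CPM (bars, from 0) of FTH1 and of BEST1, whose exons overlap it, in each shMEX3A library (red) and each shCtrl library (blue). FTH1 runs from 11614 to 13681 CPM, with shCtrl replicate 1 highest, and BEST1 from 23.9 to 222 CPM, with the same library lowest.

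FTL, the light chain that aids mineralisation of the core (chromosome 19, 48965301 to 48966878, plus strand), measured 1392, 1348 and 1381 CPM in shMEX3A libraries and 1490, 1420 and 1375 CPM in shCtrl libraries. The arms overlapped at shCtrl replicate 3. With edgeR the log2 fold change was -0.06 (95% interval -0.12 to 0.01, adjusted p = 0.104, edgeR). FTL was called lower without the low-count filter (-0.069, adjusted p = 0.0286), with GC and length offsets (-0.062, adjusted p = 0.0265) and without shCtrl replicate 3 (-0.087, adjusted p = 0.0257). RefSeq names 20 pseudogenes of FTL, of which FTLP10 is a row of the table and had no counts.

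NCOA4 is the receptor that carries ferritin to autophagosomes, which frees its iron, and lies on chromosome 10 (46005088 to 46030714, minus strand). It measured 254, 246 and 250 CPM in shMEX3A libraries, against 224, 229 and 237 CPM in shCtrl libraries. The arms did not overlap, with shMEX3A above shCtrl throughout. On the log2 scale the change was 0.12 (SE 0.031, adjusted p = 0.000799, edgeR), and 0.25 with GC and length offsets. RefSeq names 4 pseudogenes of NCOA4, none of them a row of the table.

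AIFM2, also called FSP1, reduces coenzyme Q at membranes and so stops lipid peroxidation without glutathione. Its gene lies on the same chromosome (70098223 to 70132934, minus strand). It measured 9.27, 7.73 and 8.59 CPM in shMEX3A libraries, against 7.82, 5.56 and 6.56 CPM in shCtrl libraries. The arms overlapped, since shCtrl replicate 1 was above shMEX3A replicate 2. AIFM2 rose by 0.35 on the log2 scale (SE 0.103, 95% interval 0.13 to 0.56, adjusted p = 0.00431, edgeR), on 291 to 383 counts in shMEX3A and 197 to 342 counts in shCtrl. With GC and length offsets its log2 fold change was 0.24, just within the threshold (adjusted p = 0.0418, edgeR). AIFM1, a family member of the mitochondrial intermembrane space, fell to 118 ± 0.198 CPM in shMEX3A, against 135 ± 1.15 CPM in shCtrl (SD, n = 3 each; log2 fold change -0.19, adjusted p = 2.21e-06, edgeR), and was at -0.10 with GC and length offsets. AIFM3 had at most 5 counts in a library and was not tested.

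**Figure D3:**
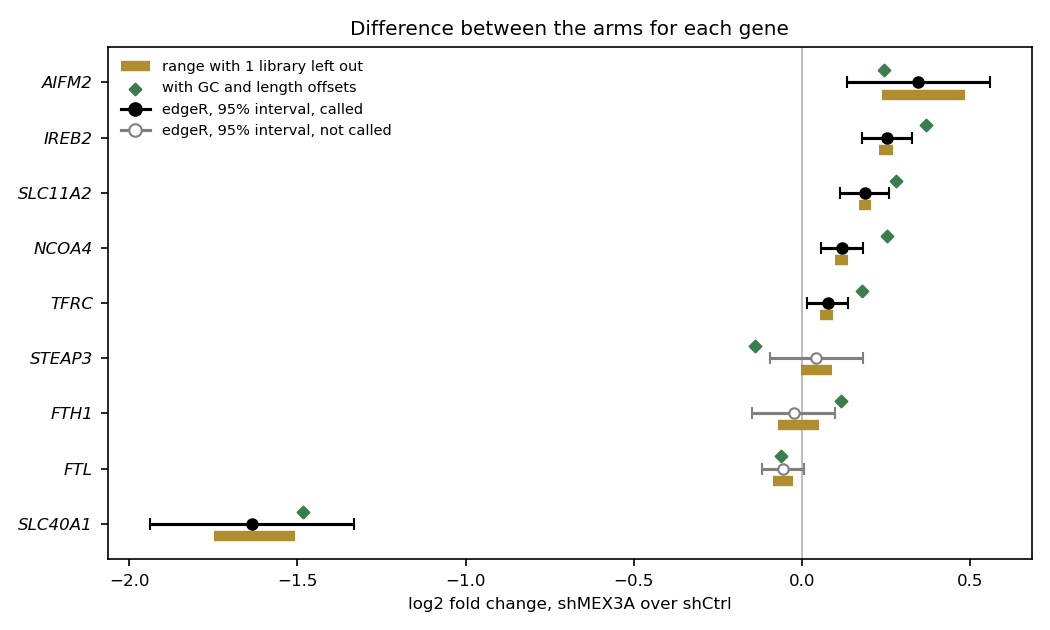
Log2 fold change of shMEX3A over shCtrl (horizontal axis) for each gene, with the 95% interval of the edgeR fit (circles, filled where called), the value with GC and length offsets (diamonds) and the range when 1 library is left out (bars). SLC40A1 stands at -1.64, the other 8 genes lie between -0.06 and 0.35, and FTH1 and STEAP3 change sign with the offsets.

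GC content differs among the members. The longest GENCODE 29 transcript of IREB2 has 38.3% GC, of TFRC 41.5%, of SLC11A2 43.0% and of NCOA4 43.1%, and the offsets moved all 4 further up. That of SLC40A1, which fell, has 42.4%, and the offsets moved SLC40A1 up as well, from -1.64 to -1.48. The members with more GC are FTH1 at 50.1%, AIFM2 at 56.1%, FTL at 56.3% and STEAP3 at 56.9%. Of these, the offsets moved FTH1 up, from -0.02 to 0.12, and AIFM2, FTL and STEAP3 down. The offsets cover transcript length as well as GC content. Groups did not overlap for 5 of the 9 members (TFRC, SLC40A1, SLC11A2, NCOA4 and IREB2), beside 72.3% of all tested genes. The part of GC content in these differences was not tested beyond the offsets.

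Levels can be compared between genes only per length. In CPM per kb of exon, the order from high to low in shMEX3A was FTH1 (6006), FTL (1564), NCOA4 (61.2), TFRC (36.9), SLC11A2 (8.72), IREB2 (8.66), STEAP3 (3.07), AIFM2 (1.66) and SLC40A1 (0.343). Neighbours in this order were apart in the 3 shMEX3A libraries, except SLC11A2 and IREB2, whose ranges overlapped. In shCtrl the means kept the same order, from 6111 for FTH1 to 1.29 for AIFM2 and 1.05 for SLC40A1. There AIFM2 and SLC40A1 overlapped, while SLC11A2 and IREB2 were apart by a very narrow margin. These overlaps and margins hold only for the exon lengths used, 10.1 kb for SLC11A2 and 10.8 kb for IREB2. The longest transcripts have 4348 bases for SLC11A2 and 6354 bases for IREB2, and the order was not computed on that scale. Per kb of exon, FTH1 was 3.84 ± 0.0917 times FTL in shMEX3A and 3.75 ± 0.217 times in shCtrl (SD, n = 3 each). Per kb of the longest transcript the same ratio was 6.34 ± 0.151 in shMEX3A and 6.20 ± 0.358 in shCtrl, so its size depends on the length used.

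Ratios of counts within a library do not depend on library scaling. The count of TFRC was 212, 221 and 163 times that of SLC40A1 in shMEX3A libraries, against 50.4, 64.3 and 69.6 times in shCtrl libraries. This ratio of mRNA counts, which does not measure iron transport, was thus higher in every shMEX3A library than in any shCtrl library. The log2 fold change was -1.64 for SLC40A1 and 0.076 for TFRC, so the ratio mostly follows SLC40A1. The mean log2 difference was 1.69, with p = 0.1 by a two-sided exact permutation test, the smallest p that 3 against 3 allows (0.2 adjusted over 4 ratios). The count of NCOA4 over FTH1 was 0.0210, 0.0200 and 0.0205 in shMEX3A libraries and 0.0164, 0.0197 and 0.0199 in shCtrl libraries, apart by a narrow margin (log2 difference 0.14, exact p = 0.1, adjusted 0.2). Without shCtrl replicate 1, the library with the lowest NCOA4 over FTH1, that difference was 0.049. TFRC over FTH1 (log2 difference 0.10) and FTH1 over FTL (0.03) overlapped between the arms (exact p = 0.6 for each, adjusted 0.6). The difference in TFRC over FTH1 was 0.0016 without shCtrl replicate 1 and 0.15 without shCtrl replicate 2. That in FTH1 over FTL was 0.076 without shCtrl replicate 1 and -0.0076 without shCtrl replicate 2.

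The list for uptake, export and the hepcidin axis, the members included, held 29 genes, of which 19 were tested. Of these 9 fell and 5 rose, beside 35.6% lower and 34.0% higher over all genes, and the median change was -0.18 on the log2 scale, beside -0.01 over all tested genes. SLC39A14, a zinc and iron importer, fell to 39.2 ± 1.49 CPM in shMEX3A, against 88.3 ± 4.29 CPM in shCtrl (SD, n = 3 each; -1.17, SE 0.041), and SNX3, which recycles the transferrin receptor, changed by -0.46 (-0.24 with GC and length offsets). HFE, the receptor partner mutated in haemochromatosis, rose by 0.73 (SE 0.062) and NEO1, a co-receptor in hepcidin control, by 0.59 (SE 0.050). The ferrireductases STEAP1 (-1.10) and STEAP2 (-0.94) and the second receptor TFR2 (-0.60), singled out after their values were seen, also fell, and none of them averaged above 5.22 CPM in shMEX3A. HAMP, HJV and TMPRSS6, genes of the hepcidin axis in liver, had no counts.

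Of 20 genes listed for storage, ferritin turnover and sensing 17 were tested, 8 rose and 3 fell, with a median of 0.10, beside 34.0% higher and 35.6% lower over all genes. ATG9A, a lipid scramblase of autophagosome formation, reached 176 ± 4.40 CPM in shMEX3A, against 62.4 ± 4.46 CPM in shCtrl (SD, n = 3 each; 1.50, SE 0.041); 38.8% of its exon bases lie under other genes. HERC2, a ubiquitin ligase that acts on NCOA4, rose by 0.49 (0.29 with GC and length offsets). SKP1, a subunit of the ligase that FBXL5 joins, fell by 0.51 and CIAO1, of the cytosolic iron-sulphur machinery, by 0.30 on the log2 scale. The number that fell was 5 without shCtrl replicate 3.

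Of 27 haem genes 24 were tested, 8 rose and 10 fell, with a median of 0.04, against the same shares over all genes. HMOX1, the haem oxygenase that frees iron from haem, fell to 61.8 ± 1.05 CPM in shMEX3A, against 96.6 ± 4.42 CPM in shCtrl (SD, n = 3 each; -0.65, SE 0.038), and PGRMC2, a haem chaperone, changed by -0.56. SLC48A1, which exports haem from lysosomes, rose by 0.53 and CPOX, an enzyme of haem synthesis, by 0.51. Without shCtrl replicate 2 or shMEX3A replicate 1 the number that rose was 5. Of 32 genes for mitochondrial iron and iron-sulphur clusters 31 were tested, 4 rose and 12 fell (median -0.03), again beside 34.0% higher and 35.6% lower over all genes. The reductase FDXR, which feeds electrons to cluster assembly, rose by 0.76 and the scaffold ISCU by 0.42, while the co-chaperone HSCB fell by 0.74 and CISD2, a cluster protein of the endoplasmic reticulum and mitochondria, by 0.57. With GC and length offsets 11 of these genes rose and 15 fell.

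In the ferroptosis guard list, of which AIFM2 is a member, most genes were lower. All 38 were tested, 21 fell and 6 rose, with a median of -0.16, beside 35.6% lower and 34.0% higher over all genes. NQO1, a quinone reductase, fell to 603 ± 18.0 CPM in shMEX3A, against 1185 ± 45.3 CPM in shCtrl (SD, n = 3 each; -0.97, SE 0.032), and SCD, which makes the monounsaturated fatty acids that resist peroxidation, changed by -0.94. Among the genes that rose, CHMP6, an ESCRT subunit of membrane repair, was at 0.38 and SPR, a reductase of tetrahydrobiopterin synthesis, at 0.32. GPX4, the glutathione peroxidase that reduces lipid peroxides, fell to 257 ± 12.9 CPM in shMEX3A, against 322 ± 18.2 CPM in shCtrl (SD, n = 3 each; -0.33, adjusted p = 1.80e-06, edgeR). The cystine importer SLC7A11 (-0.42), the glutathione synthesis subunit GCLM (-0.53) and NFE2L2, the transcription factor NRF2 (-0.99), also fell. These and GPX4 were singled out after their values were seen and were not read singly under the alternative settings. With GC and length offsets 18 genes of the list fell and 12 rose. Mitochondrially encoded genes held 3.07% to 3.32% of counts in shMEX3A libraries and 1.53% to 1.65% in shCtrl libraries. With them left out of the fit the guard list again had 21 lower and 6 higher genes. That step left 15666 of 15679 genes in the test and NQO1 at -0.97, so it could hardly change these counts. The part of whatever this share reflects was not tested.

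Of 35 genes listed as ferroptosis drivers 26 were tested, 6 rose and 12 fell, with a median of -0.07, beside 34.0% higher and 35.6% lower over all genes. With GC and length offsets 9 rose and 9 fell. SAT1, which acetylates polyamines, reached 593 ± 2.72 CPM in shMEX3A, against 248 ± 8.40 CPM in shCtrl (SD, n = 3 each; 1.25, SE 0.031), and AGPAT3, an acyltransferase of phospholipid synthesis, rose by 1.08. AGPS, an enzyme of ether lipid synthesis, fell to 23.1 ± 0.854 CPM in shMEX3A, against 63.9 ± 0.275 CPM in shCtrl (SD, n = 3 each; -1.46, SE 0.044), and the desaturase FADS1 changed by -0.92. Exon bases under other genes came to 17.7% in NQO1, 20.6% in HSCB, 20.9% in NFE2L2 and 21.5% in CHMP6, whose levels are uncertain for that reason, as is that of ATG9A. Values quoted for genes of these lists passed an adjusted p of 0.05 in the edgeR quasi-likelihood test.

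**Figure D4:**
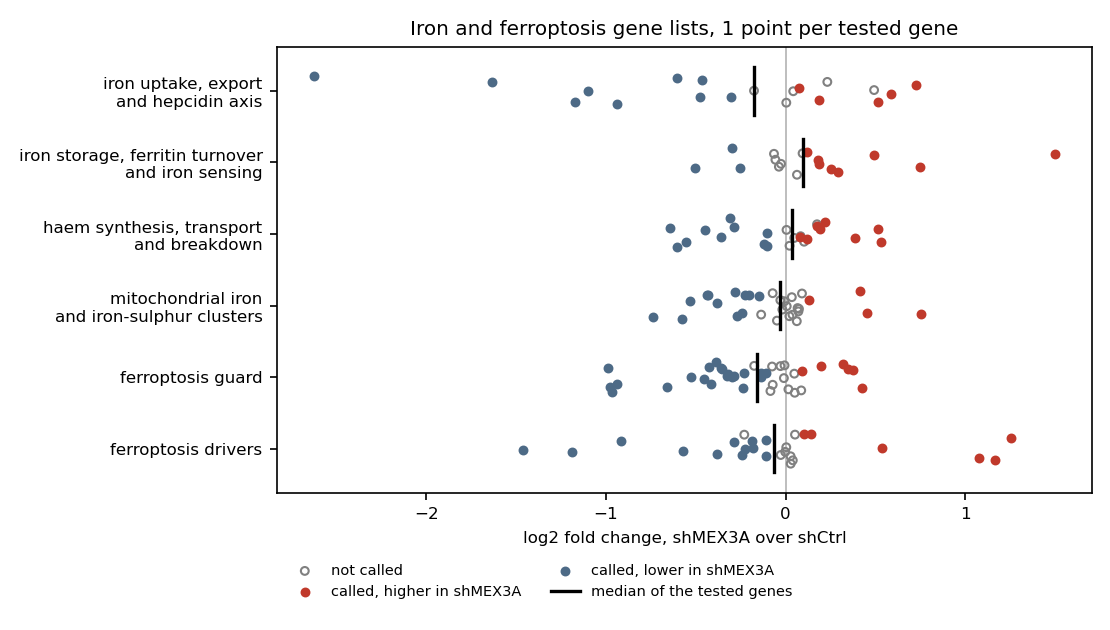
Log2 fold change of shMEX3A over shCtrl (horizontal axis) for every tested gene of 6 iron and ferroptosis lists, with called genes filled (red higher, blue lower in shMEX3A) and the median of each list as a black bar. The ferroptosis guard has 21 blue and 6 red points around a median of -0.16, and the storage list has 8 red and 3 blue around 0.10, beside 34.0% higher and 35.6% lower over all tested genes.

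Over the 6 libraries, log2 CPM of TFRC followed most closely that of PRKDC (Pearson r = 0.995), ZNF264 (0.990) and ZBTB44 (0.984), of 10037 genes with a mean of at least 3 log2 CPM. FTH1 followed SNRNP35 (0.975), UQCRHL (0.973) and SRP19 (0.971). AIFM2 followed MFF (0.993), SLC12A2-DT (0.989) and NIPAL1 (0.980). All values rest on the same 6 libraries, and for TFRC and the genes listed with it, all called higher, they also hold the split between the arms. FTH1 and the genes listed with it were not called between the arms (log2 fold change -0.02 to -0.08), and shCtrl replicate 1 stood above the other libraries in FTH1. The correlations are therefore descriptions only.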

How the data were processed

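The authors deposited raw read counts per gene, 1 column per library. The tools named in the submitters' processing notes, without roles, are edgeR 4.0.16, HTSeq 2.0.4, STAR and fastp 0.20.0, and the build named there is GRCh38. STAR's version, the annotation release and whether counting used strand are not given in the sources, so reads of overlapping genes cannot be told apart. At most 0.426% of any library's counts fell in rows without a RefSeq symbol.

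The main test was edgeR 4.0.16 under R 4.3.3 (filterByExpr, TMM, robust quasi-likelihood fit, 4 residual degrees of freedom), with Benjamini-Hochberg adjustment over 15679 genes. Standard errors came from the F statistic. TMM takes most genes as unchanged, so changes are relative to other genes. Here 69.7% of tested genes were called, 34.0% higher and 35.6% lower, so small changes such as that of TFRC can depend on the scaling. Alternatives were DESeq2 1.42.0, limma 3.58.1 voom, other scaling and filters, a replicate block, and offsets for GC content and length (88.2% of tested genes had both). Libraries of 1 arm differed by more than sampling noise (chi-square per degree of freedom 2.69 to 6.15).

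Members and lists were chosen with earlier results of these data known. Named genes are the members, 2 called genes per list and direction with the smallest p, AIFM1, AIFM3 and the genes most like TFRC, FTH1 and AIFM2. ACO1, FBXL5, STEAP1, STEAP2, TFR2, GPX4, SLC7A11, GCLM, NFE2L2 and BEST1 were added after their values were seen. The alternative fits were not read singly for these added genes. Some marker genes are not reported here.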

Additional observations from a re-analysis of the deposited data

How the results depend on the processing

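The direction and call of SLC40A1 (log2 fold change -1.75 to -1.48), SLC11A2 (0.17 to 0.28), NCOA4 (0.10 to 0.25), IREB2 (0.23 to 0.37), AIFM2 (0.24 to 0.48) and MEX3A (-1.86 to -1.68) held under all 17 alternatives. Among these, adding pseudogene rows to FTH1 and FTL, or BEST1 counts to FTH1, left the counts of the genes just named as they were. Those settings could therefore hardly have moved them. TFRC lost its call without the low-count filter (0.064) and with the replicate block (0.076), and ran from 0.052 to 0.094 with 1 library left out, where the call was lost in 3 of 6 fits. FTH1 turned to 0.12 and was called higher with GC and length offsets. FTL was called lower without the low-count filter (-0.069) and with the offsets (-0.062), and ran from -0.087 to -0.026 with 1 library left out. The number of members lower was therefore 2 under both settings and 1 to 2 with 1 library left out. With the offsets 11 iron-sulphur genes and 12 guard genes were higher, in place of 4 and 6. Ferroptosis drivers were then 9 higher and 9 lower, in place of 6 and 12. With 1 library left out, 5 to 8 haem genes were higher and 3 to 5 storage genes lower. The cause of these shifts was not tested. Replicate numbers did not pair the libraries (correlations of same-numbered deviations -0.0769 to 0.0772, 2 of 6 libraries best with their own number). The replicate block left 10751 genes called, against 10925 without it, and among the members changed the call of TFRC alone. SLC40A1 and AIFM2 rest on few counts, which limits their precision.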
